A study of Mus musculus with 6 samples.

Results

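The complement system was examined in liver tissue of the mouse substrains Balb/c and Balb/cBy through 33 genes for its components, regulators and receptors. Each gene was read from the probe set that the platform annotation gives to its symbol alone, the one with the highest mean where there were several. Of the 33 genes, 30 had such a probe set, among 22180 genes measured in this way. C3, the component on which all pathways converge, and Cfd, factor D, are unlisted in the annotation, and Masp2 lies on a probe set shared with Tardbp, so these 3 were not analysed here. C1s1 was the 1 gene with 2 probe sets.

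Total RNA of liver from 6 male mice was hybridized to Affymetrix whole-transcript arrays, 1 mouse per array. The 3 Balb/c mice, called wild type in the series, and the 3 Balb/cBy mice, called KD, were 20 weeks old. All had eaten a high-fat diet, in which fat gave 58% of the energy, for 12 weeks after the age of 8 weeks, so no mouse on a standard diet stands beside them. The labels give the mice of a group as biological replicates, and no allele or agent other than the substrain. They name no gene for the term KD. Balb/cBy mice are known to carry a deletion in Acads, a mitochondrial acyl-CoA dehydrogenase, whose difference here was -0.65 ± 0.12 (SE, n = 3 per group). All differences below are Balb/cBy minus Balb/c in log2 units of deposited RMA values, a scale on which a difference of 1 is a doubling, with limma's moderated standard error (SE).

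Complement is a cascade of plasma proteins, most of them made by hepatocytes, that marks microbes and damaged cells for uptake or lysis. The classical pathway starts with C1q bound to antibody, the lectin pathway with lectins bound to sugars, and the alternative pathway with C3 that activates by itself. All lead to the cleavage of C3 and C5 and to a membrane pore of C5b to C9, while regulators on host cells and in plasma hold the cascade back. In the liver, C1q, properdin and ficolin A come largely from macrophages such as Kupffer cells, and several hepatocyte components belong to the acute phase response.

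No complement gene was called different between the substrains, and those with the smallest p were all higher in Balb/cBy. None of the 30 genes passed limma's Benjamini-Hochberg adjusted p of 0.05 over all probe sets, and each had an adjusted p of 0.999. The background of genes called by that rule was 0.0%. At an unadjusted limma p under 0.05 there were 6 complement genes, all higher in Balb/cBy, which is 20.0% of those measured, against 3.74% of all genes in either direction. In the higher direction alone the share of all genes was 2.59%, in the lower 1.15%. Among genes brighter than most olfactory receptor genes, a stand-in for background that is given in full further on, the higher share was 3.74%, and 4 of the 24 complement genes that bright, or 16.7%, met the same rule. The 6 were C8b, Fcna, C3ar1, C5ar1, Mbl1 and C2. The complement genes were chosen with earlier results of these data known and were read on the same 6 arrays. These shares are therefore no independent test. Of the 30 genes, 23 read higher and 7 lower, and the median difference was 0.10. Over all genes the median was -0.0028 and 49.1% read higher, and of the genes brighter than that background level 57.3% read higher, beside 83.3% of the 24 bright complement genes. With renewed quantile normalization the median of the 30 genes was 0.0581, with 20 higher and 10 lower. The difference ran from -0.17 for Mbl2 to 0.44 for C8b. Averaged over the 30 genes, the log2 value was 10.62, 10.67 and 10.66 in the 3 Balb/c mice and 10.79, 10.78 and 10.73 in the 3 Balb/cBy mice, while the mean over all genes lay between 8.04 and 8.07 on all 6. The count of 6 fell to 2 without Balb/cBy replicate 2 and to 2 with the replicate number as a block. The share of all genes was not counted in those settings. In bulk liver, fewer cells of a type and less RNA per cell cannot be told apart.

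**Figure D1:**
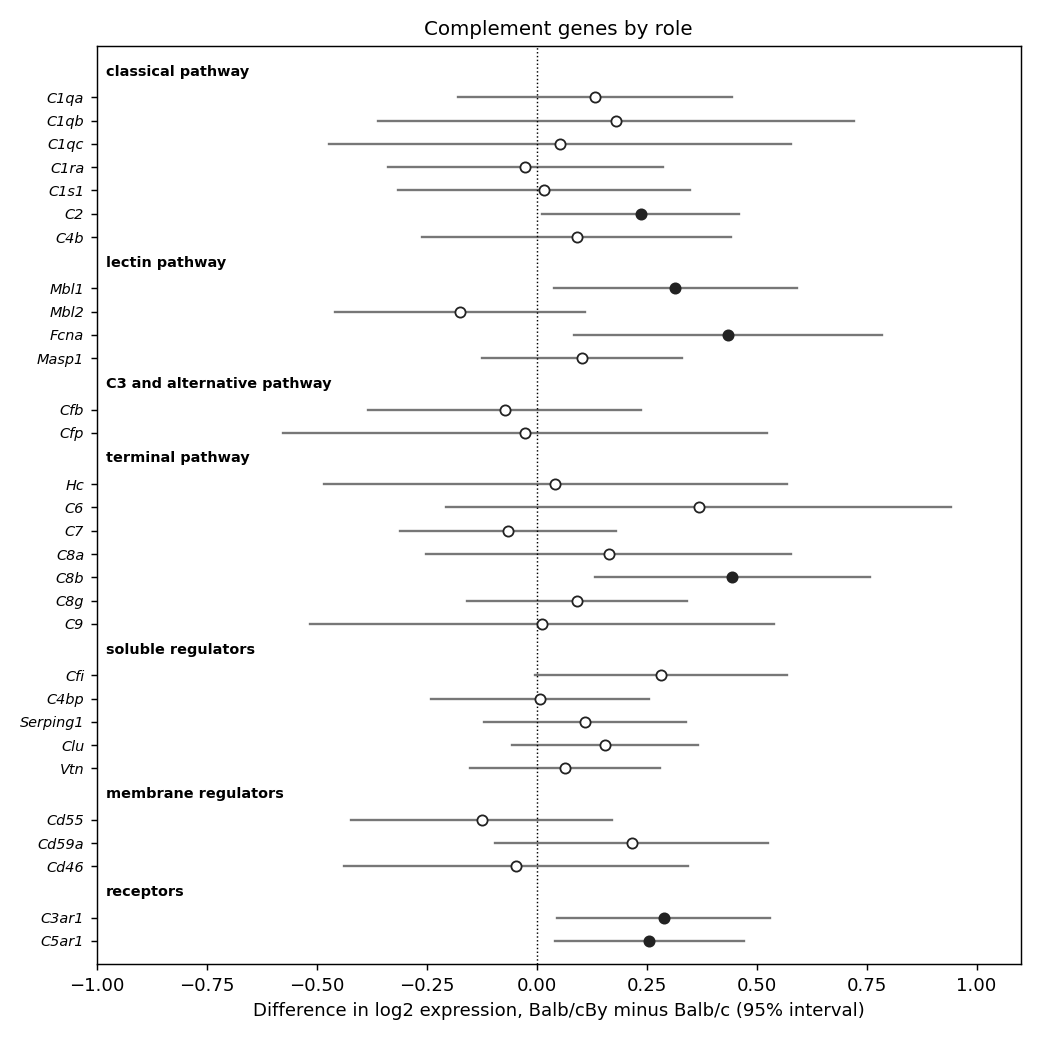
Difference in log2 expression (Balb/cBy minus Balb/c, horizontal axis) of the 30 complement genes, grouped by role, with limma's 95% interval as a line. Filled points mark the 6 genes with an unadjusted p under 0.05, all to the right of 0, and the intervals of the other 24 cross 0.

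The precision of these values bounds what could be seen. The 95% interval of a complement gene reached between 0.21 and 0.57 to each side of its difference, with a median of 0.31. As a stand-in for background, which the table does not hold, the 95th percentile of the mean level of 1108 olfactory receptor probe sets was taken, at 8.01. Of the 30 genes, 24 lay above it in both groups. C1s1, C7, Cd55, Cd46 and C5ar1 lay under it in both groups, so they cannot be set apart from background with this table. C3ar1 lay under it in Balb/c only, so its Balb/c level cannot be set apart either. RMA compresses low values, so true differences of dim genes may be understated, but whether this held here was not tested. The labelled tissue was borne out by hepatocyte markers such as Alb and Ttr, of which 10 of 10 measured lay above that level in both groups. Their median difference was 0.0037, and none had an unadjusted limma p under 0.05.

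Promoter sequence is shown for genes whose levels are described below. C8b, Mbl1 and C3ar1 are among the 6 with the smallest p, and C9, C1qb and Cfp are among those that varied most within groups. The sequences are RefSeq's for GRCm38.p6, the 150 bases before the annotated start, 5′ to 3′ on the strand of the gene. They lie at chr4:104766167-104766316 on the plus strand (C8b), chr14:41151306-41151455 on the plus strand (Mbl1), chr6:122856158-122856307 on the minus strand (C3ar1), chr15:6445196-6445345 on the plus strand (C9), chr4:136886201-136886350 on the minus strand (C1qb) and chrX:20931556-20931705 on the minus strand (Cfp). Capitals mark the matches to 5 searched motifs, 1 to C/EBP in C9 and 1 to HNF1 in Cfp.
C8b: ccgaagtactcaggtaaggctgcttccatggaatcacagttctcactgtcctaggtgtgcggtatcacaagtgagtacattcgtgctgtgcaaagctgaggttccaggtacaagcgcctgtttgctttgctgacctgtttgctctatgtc
Mbl1: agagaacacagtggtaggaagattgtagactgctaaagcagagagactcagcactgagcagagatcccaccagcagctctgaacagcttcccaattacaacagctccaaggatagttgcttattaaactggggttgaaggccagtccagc
C3ar1: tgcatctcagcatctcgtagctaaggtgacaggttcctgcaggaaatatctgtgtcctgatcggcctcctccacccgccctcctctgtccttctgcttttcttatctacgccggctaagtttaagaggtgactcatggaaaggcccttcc
C9: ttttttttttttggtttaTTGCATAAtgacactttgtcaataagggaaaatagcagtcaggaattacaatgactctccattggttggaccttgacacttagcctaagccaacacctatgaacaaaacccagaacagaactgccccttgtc
C1qb: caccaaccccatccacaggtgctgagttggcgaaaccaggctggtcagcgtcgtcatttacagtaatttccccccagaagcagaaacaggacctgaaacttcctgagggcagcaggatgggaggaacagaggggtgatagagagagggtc
Cfp: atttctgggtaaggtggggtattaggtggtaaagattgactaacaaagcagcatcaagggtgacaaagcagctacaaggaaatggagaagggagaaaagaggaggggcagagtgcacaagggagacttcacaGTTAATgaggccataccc

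The promoter table held 22 of the 30 genes. The 250 bases before each start were searched on both strands for C/EBP (TTGCNNAA), which binds factors of the acute phase in hepatocytes, and HNF1 (the half-site GTTAAT), which binds a factor of hepatocyte identity. STAT (TTCNNNGAA), a factor of cytokine signalling, PU.1 (GAGGAAGT), a macrophage factor, and TATAAA were searched likewise. The motifs did not overlap in the windows shown. Complement genes are counted by gene, with a match in any listed promoter, and the share of all promoters by promoter, so the 2 differ in unit. C/EBP matched C1s1 and C9, 2 of the 22 genes, beside 9.56% of all promoters. HNF1 matched C1ra, C4bp, C7, C8a, C8b, Cfp, Hc and Vtn, 8 of the 22, beside 6.43% of all promoters. STAT matched C7 and C8a, beside 7.02%, and PU.1 matched C1qc, beside 2.44%. TATAAA matched C3ar1, C7, Hc and Vtn, beside 12.4%; the matches of C3ar1 and, for HNF1, C8b lie farther from the start than the bases shown. A match is a run of letters, and its absence says only that those letters are not in the window.

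In the terminal pathway, whose proteins assemble into the membrane pore, C8b stood out with the smallest p of all complement genes. C8b encodes the beta chain of C8. It read 12.15, 11.94 and 12.33 in Balb/c and 12.79, 12.52 and 12.44 in Balb/cBy, in the order of the replicates, as do all values that follow. The groups did not overlap, and the highest value was that of Balb/cBy replicate 1. The difference was 0.44 ± 0.14 (SE, 95% interval 0.13 to 0.76), 1.36-fold, with limma's unadjusted p = 0.0112 and adjusted p = 0.999. It was the 1 gene of the 6 whose unadjusted p stayed under 0.05 in each of 16 other settings, where it ran from 0.00531 to 0.0452. C8a, the alpha chain and the neighbour of C8b in the RefSeq gene order, read 11.52, 11.62 and 12.11 in Balb/c and 12.19, 11.78 and 11.77 in Balb/cBy. Its groups overlapped, with a difference of 0.16 ± 0.18 (SE), which ran from 0.0247 without Balb/cBy replicate 1 to 0.343 without Balb/c replicate 3. C8g, the gamma chain, read 12.92, 12.68 and 12.87 in Balb/c and 12.78, 12.94 and 13.02 in Balb/cBy, and differed by 0.09 ± 0.11 (SE). The contrast between the 3 chains was not tested.

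The other terminal components varied more between mice of 1 group than between groups. Hc, the gene of C5, read 11.98, 12.54 and 12.88 in Balb/c and 12.82, 12.32 and 12.39 in Balb/cBy. Its difference of 0.04 ± 0.23 (SE) turned to -0.20 without Balb/c replicate 1 and to -0.11 without Balb/cBy replicate 1. C6, which binds C5b first, read 11.08, 11.31 and 11.87 in Balb/c and 12.24, 11.72 and 11.42 in Balb/cBy, a difference of 0.37 ± 0.25 (SE, 95% interval -0.21 to 0.94) with overlapping groups. That difference was 0.593 without Balb/c replicate 3 and 0.556 without Balb/cBy replicate 3, but 0.198 without Balb/c replicate 1 and 0.145 without Balb/cBy replicate 1. C9, which forms the wall of the pore, read 11.83, 12.11 and 12.66 in Balb/c and 12.57, 11.98 and 12.08 in Balb/cBy, a difference of 0.01 ± 0.23 (SE). In Hc, C6, C8a and C9, Balb/c replicate 3 and Balb/cBy replicate 1 were the highest array of their group and Balb/c replicate 1 the lowest of Balb/c. C7, which anchors the complex to the membrane, differed by -0.06 ± 0.11 (SE) from levels dimmer than the olfactory receptor level. Of the 7 terminal genes, 6 read higher and 1 lower in Balb/cBy, with a median of 0.09.

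**Figure D2:**
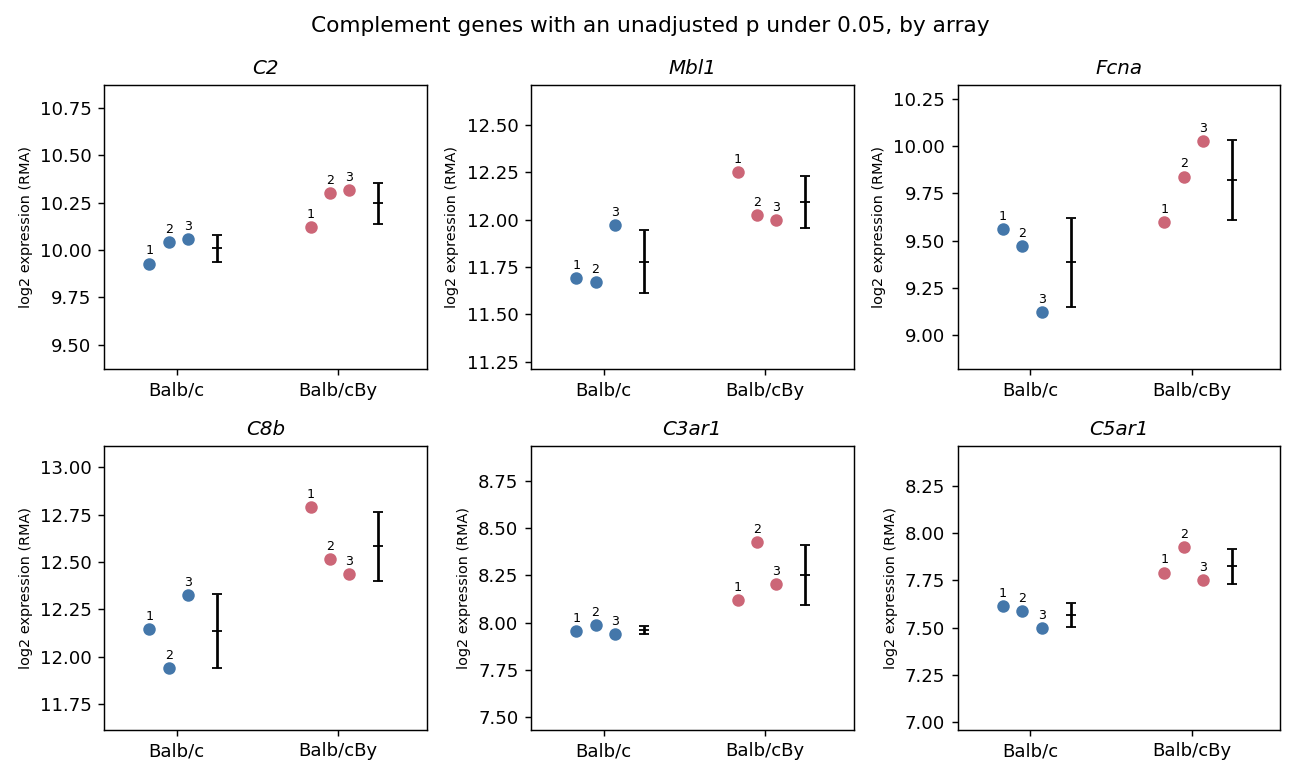
Log2 expression (vertical axis, RMA) of the 6 complement genes with an unadjusted p under 0.05 on each of 3 Balb/c (blue) and 3 Balb/cBy (red) arrays, numbered by replicate, each panel spanning the same range of 1.5 log2 units. Bars give the mean and SD. In each panel all Balb/cBy arrays lie above all Balb/c arrays, by the smallest margin in Mbl1 and Fcna.

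Among the lectin pathway genes, Fcna and Mbl1 read higher in Balb/cBy and Mbl2 lower. Fcna encodes ficolin A, a sugar-binding trigger of the pathway that macrophages make. It read 9.56, 9.47 and 9.12 in Balb/c and 9.60, 9.84 and 10.03 in Balb/cBy. The groups did not overlap, but Balb/c replicate 1 and Balb/cBy replicate 1 lay close together. The difference was 0.44 ± 0.15 (SE, 95% interval 0.08 to 0.79), with limma's unadjusted p = 0.0209, and it was 0.30 without Balb/c replicate 3, where limma's unadjusted p was 0.0675. The Kupffer cell markers read 6 of 12 higher and 6 lower, with a median of 0.01. The list was divided, from -0.37 for Adgre1 to 0.43 for Cd68. Mpeg1 (0.35) and Vsig4 (0.41) had an unadjusted limma p under 0.05, or 16.7%, against 2.59% of all genes in the higher direction. The mean log2 level of the 12 markers ran from 9.50 to 10.19 in Balb/c and from 9.73 to 10.17 in Balb/cBy. It was lowest in Balb/c replicate 3, as for Fcna. Their part in the difference of Fcna was not tested.

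Mbl1 and Mbl2 encode the mannose-binding lectins A and C, which share the job of recognising microbial sugars. Mbl1 read 11.69, 11.67 and 11.97 in Balb/c and 12.25, 12.02 and 12.00 in Balb/cBy. The groups did not overlap, but Balb/c replicate 3 came close to Balb/cBy replicates 2 and 3. The difference was 0.31 ± 0.12 (SE, 95% interval 0.04 to 0.59), 1.24-fold, with limma's unadjusted p = 0.0301. Mbl2 read 9.87, 9.89 and 9.70 in Balb/c and 9.42, 9.77 and 9.76 in Balb/cBy, with overlapping groups and a difference of -0.17 ± 0.12 (SE, 95% interval -0.46 to 0.11), or -0.0588 without Balb/cBy replicate 1. Masp1, a protease that the lectins carry, read 11.31, 11.22 and 11.33 in Balb/c and 11.25, 11.48 and 11.45 in Balb/cBy, and differed by 0.10 ± 0.10 (SE).

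In the classical pathway 6 of 7 genes read higher, and C2 had an unadjusted limma p under 0.05. C2 is the protease of the classical C3 convertase. It read 9.93, 10.04 and 10.06 in Balb/c and 10.12, 10.30 and 10.31 in Balb/cBy, without overlap. The difference was 0.24 ± 0.10 (SE, 95% interval 0.01 to 0.46), 1.18-fold, with limma's unadjusted p = 0.0408. It was the least steady of the 6, with an unadjusted p under 0.05 in 8 of 16 other settings. Cfb, factor B, which plays the same part in the alternative pathway and neighbours C2 in the RefSeq gene order, read 12.60, 12.73 and 12.23 in Balb/c and 12.47, 12.38 and 12.50 in Balb/cBy. Its groups overlapped, at -0.07 ± 0.14 (SE). C4b, which carries the convertase on the target surface, read 12.23, 12.83 and 12.43 in Balb/c and 12.53, 12.69 and 12.55 in Balb/cBy, at 0.09 ± 0.15 (SE). Its near-identical neighbour C4a may share its signal, so the level of C4b alone is uncertain. C1ra and C1s1, the proteases of the C1 complex, differed by -0.03 ± 0.14 and 0.02 ± 0.14 (SE), and may likewise share signal with C1rb and C1s2. The other probe set of C1s1 differed by 0.29 ± 0.23 (SE).

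The C1q chains and properdin, which macrophages supply in the liver, varied more within groups than between them. C1qb read 11.11, 11.18 and 10.22 in Balb/c and 10.92, 11.09 and 11.04 in Balb/cBy. Balb/c replicate 3 stood apart, and the difference of 0.18 ± 0.24 (SE) turned to -0.13 without it. C1qc read 8.94, 9.17 and 8.24 in Balb/c and 8.60, 8.995 and 8.91 in Balb/cBy, and its difference of 0.05 ± 0.23 (SE) turned to -0.22 without Balb/c replicate 3. C1qa read 10.02, 10.22 and 9.75 in Balb/c and 9.99, 10.17 and 10.23 in Balb/cBy, at 0.13 ± 0.14 (SE), or 0.00872 without Balb/c replicate 3. Cfp, the gene of properdin, which steadies the alternative convertase, read 10.43, 10.45 and 9.55 in Balb/c and 9.90, 10.14 and 10.31 in Balb/cBy, at -0.03 ± 0.24 (SE). In all 4 genes Balb/c replicate 3 and Balb/cBy replicate 1 were the lowest array of their group.

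Markers of Kupffer cells and of stellate cells and fibroblasts moved with these 4 genes from array to array, and so did the acute phase and cytokine list. As deviations from the group mean, the mean of the 12 Kupffer cell markers stood at 0.10, 0.30 and -0.40 in Balb/c and -0.23, 0.03 and 0.21 in Balb/cBy. C1qb stood at 0.28, 0.34 and -0.62 in Balb/c and -0.09, 0.07 and 0.02 in Balb/cBy, and Cfp at 0.29, 0.31 and -0.60 and at -0.21, 0.02 and 0.19. C6 went the other way, at -0.34, -0.11 and 0.45 in Balb/c and 0.45, -0.07 and -0.38 in Balb/cBy. C9 did so too, at -0.37, -0.09 and 0.46 in Balb/c and 0.36, -0.23 and -0.13 in Balb/cBy. C8b, Mbl1 and Cfi were likewise highest of their group in Balb/c replicate 3, at 0.19, 0.19 and 0.25. They were also highest in Balb/cBy replicate 1, at 0.21, 0.16 and 0.08. Fcna was lowest in both arrays, at -0.26 and -0.22. The mean of the 11 stellate cell and fibroblast markers was likewise lowest in Balb/c replicate 3 and Balb/cBy replicate 1, at 0.23, -0.04 and -0.19 in Balb/c and -0.15, -0.0022 and 0.15 in Balb/cBy. The mean of the acute phase and cytokine list was also lowest in Balb/c replicate 3, at -0.42, but stood at 0.13 in Balb/cBy replicate 1. The hepatocyte marker mean moved by at most 0.06 from its group mean on any array. Its log2 level was high, from 13.12 to 13.24, where the highest value of any probe set was 14.84. Whether so high a level left less room to move was not tested. The spread within groups placed C6, Cfp, C1qb, C9, Hc and C1qc above the 96th percentile of all genes, with pooled SDs from 0.37 to 0.41, against a median of 0.14 over all genes. The part of cell composition in these deviations was not tested.

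**Figure D3:**
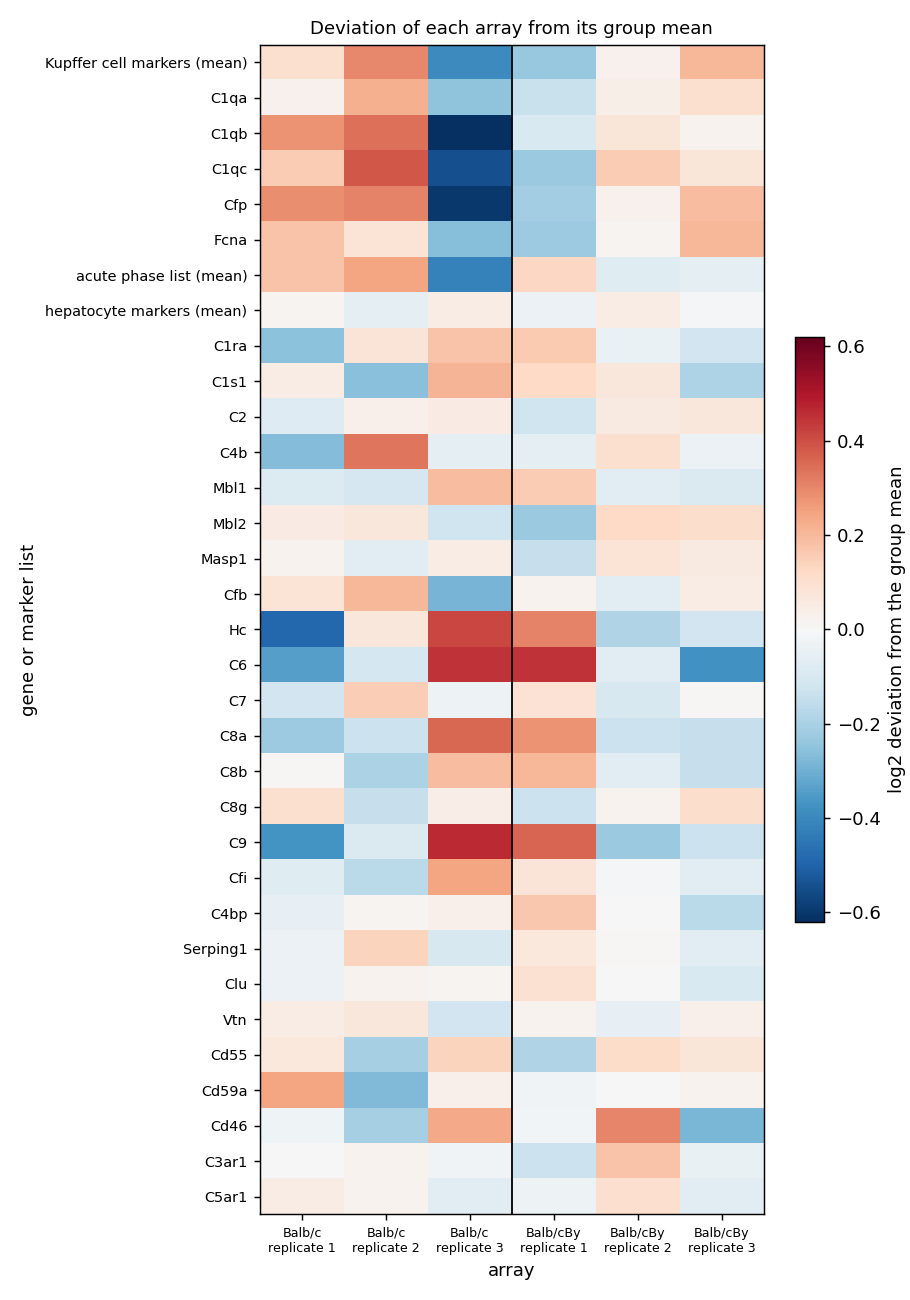
Deviation of each array from its group mean in log2 units (colour, red above and blue below) for the 30 complement genes and the means of 3 marker lists, with the 3 Balb/c arrays left of the line and the 3 Balb/cBy arrays right of it. The C1q chains, Cfp and Fcna share low values with the Kupffer cell markers in Balb/c replicate 3 and Balb/cBy replicate 1. Hc, C6, C8a and C9 are high there, and so, by less, are C8b, Mbl1 and Cfi.

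Of the regulators in plasma, all 5 read higher in Balb/cBy by small amounts, and none had an unadjusted limma p under 0.05. Cfi, factor I, which cuts C3b and C4b, read 11.65, 11.56 and 11.98 in Balb/c and 12.09, 12.00 and 11.95 in Balb/cBy. Its groups overlapped through Balb/c replicate 3, and the difference was 0.28 ± 0.12 (SE) with limma's unadjusted p = 0.0524. Clu, clusterin, which blocks the pore, read 11.94, 12.00 and 12.00 in Balb/c and 12.23, 12.14 and 12.04 in Balb/cBy, without overlap, at 0.16 ± 0.09 (SE). Clu and the 6 genes above were the 7 complement genes, or 23.3%, whose groups did not overlap with Balb/cBy higher, against 4.32% of all genes and 5.69% of the brighter genes. In the lower direction there were 0, against 3.51%. Serping1, the C1 inhibitor, read 13.19, 13.36 and 13.12 in Balb/c and 13.40, 13.34 and 13.26 in Balb/cBy, at 0.11 ± 0.10 (SE). Vtn, vitronectin, which also blocks the pore, read 13.76, 13.78 and 13.59 in Balb/c and 13.80, 13.72 and 13.80 in Balb/cBy, at 0.06 ± 0.09 (SE). C4bp, the binding protein of C4b, differed by 0.01 ± 0.11 (SE).

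Of the regulators on the cell membrane, Cd59a, which stops C9 from joining the pore, read 11.25, 10.72 and 11.03 in Balb/c and 11.19, 11.22 and 11.24 in Balb/cBy. The Balb/cBy arrays were nearly alike and lay inside the Balb/c range, at a difference of 0.22 ± 0.13 (SE), which was 0.078 without Balb/c replicate 2 and 0.340 without Balb/c replicate 1. Cd55, which speeds the decay of convertases, read 7.94, 7.66 and 8.01 in Balb/c and 7.56, 7.86 and 7.82 in Balb/cBy, at -0.13 ± 0.13 (SE). Cd46, a cofactor of factor I, differed by -0.05 ± 0.17 (SE). Both were dimmer than the olfactory receptor level. Cd55 and Cd59a have close copies, Cd55b and Cd59b, whose transcripts their probes may share.

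Both receptors for the small fragments released by the cascade read higher in Balb/cBy from low levels. C3ar1, the receptor of C3a on myeloid cells, read 7.96, 7.99 and 7.94 in Balb/c and 8.12, 8.43 and 8.21 in Balb/cBy. The Balb/c arrays were nearly equal and all lay below the Balb/cBy arrays, with a difference of 0.29 ± 0.10 (SE, 95% interval 0.05 to 0.53) and limma's unadjusted p = 0.0247. C5ar1, the receptor of C5a on neutrophils and macrophages, read 7.62, 7.59 and 7.50 in Balb/c and 7.79, 7.93 and 7.75 in Balb/cBy. Its groups did not overlap, at 0.26 ± 0.09 (SE, 95% interval 0.04 to 0.47) with limma's unadjusted p = 0.0249. Neutrophil markers read 8 of 11 higher and 3 lower, with a median of 0.13. An unadjusted limma p under 0.05 was reached by 2 of them, both higher, or 18.2%, against 2.59% of all genes in the higher direction. The groups of 3, or 27.3%, did not overlap with Balb/cBy higher, against 4.32% of all genes. The mean level of the 11 markers ran from 7.25 to 7.45 in Balb/c and from 7.46 to 7.57 in Balb/cBy, and 7 of the 11 were not above the olfactory receptor level in both groups. Their part in the differences of the receptors was not tested.

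Of 28 further complement genes, 24 were measured, 14 read higher and 10 lower, and their median difference was 0.03. None passed limma's adjusted p, and 2, both higher in Balb/cBy, had an unadjusted p under 0.05. That was 8.33% of those measured, against 2.59% of all genes in the higher direction. Vsig4, a complement receptor of Kupffer cells that binds C3b and is also on the Kupffer cell list, read 11.20, 10.85 and 10.57 in Balb/c and 11.16, 11.37 and 11.31 in Balb/cBy. Its groups overlapped, at 0.41 ± 0.16 (SE). Cpn2, a subunit of the carboxypeptidase that inactivates C3a and C5a, read 11.43, 11.53 and 11.48 in Balb/c and 11.64, 11.70 and 11.69 in Balb/cBy, without overlap, at 0.20 ± 0.09 (SE). Susd4, an inhibitor of convertases, differed by -0.27 ± 0.14 (SE), C1rl, a protease related to C1r, by 0.17 ± 0.09 (SE), C1rb by 0.18 ± 0.13 (SE) and Cr1l, a membrane regulator of rodents, by 0.14 ± 0.12 (SE). The other 4 were not analysed here.

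The acute phase and cytokine signalling list, to which several complement genes are linked, read 22 of 26 higher, or 84.6%, with a median of 0.23. Of all genes 49.1% read higher, and of the brighter genes 57.3%. The mean log2 level of the list was 11.82, 11.88 and 11.22 in Balb/c and 11.99, 11.79 and 11.81 in Balb/cBy. Balb/c replicate 3 was thus the lowest array, and Balb/cBy replicates 2 and 3 lay below Balb/c replicates 1 and 2. The serum amyloid Saa3 differed most in the lower direction, at -1.41 ± 1.07 (SE). It read 13.88, 13.73 and 9.37 in Balb/c and 10.57, 10.60 and 11.60 in Balb/cBy. Balb/c replicate 3 also stood far below its group in Saa2 (13.91, 13.87 and 9.94) and Lcn2 (12.20, 12.23 and 9.95). None of the 26 passed limma's adjusted p, and 5, all higher, had an unadjusted p under 0.05. That was 19.2% of the list, against 2.59% of all genes in the higher direction. The list was chosen with earlier results of these data known, so this share is no independent test. The smallest p-values were those of Il1r1, the interleukin 1 receptor, at 1.19 ± 0.16 (SE), Osmr, the oncostatin M receptor, at 0.76 ± 0.11 (SE), Steap4, a cytokine-induced metalloreductase, at 1.09 ± 0.22 (SE), and Saa4, a serum amyloid, at 0.27 ± 0.10 (SE). Markers of the other cell types included 10 of 11 stellate cell and fibroblast genes higher, with a median of 0.16. Of these 11, Lum (0.53) and Dcn (0.48) had an unadjusted limma p under 0.05, at 0.0017 and 0.010. That was 18.2%, against 2.59% of all genes in the higher direction, and Lum lay under the olfactory receptor level in Balb/c. Of the adipocyte genes 4 of 9 read higher, with a median of -0.04, and of the sinusoidal endothelial genes 5 of 9, with a median of 0.03. In both of these lists 0 genes had an unadjusted limma p under 0.05.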

How the data were processed

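Per the submitters' processing notes, the authors made the deposited log2 values with RMA, a method of background correction, quantile normalization and summary over the probes of a probe set. For the software version and the genome build, nothing is given in the sources used here. Of the 41345 probe sets in the table, the 23521 with 1 gene symbol in the platform annotation were tested, covering 22180 genes. Groups came from the substrain in the labels. The substrains were compared by limma 3.58.1 in R 4.3.3 (lmFit and eBayes, no covariate), with two-sided p-values adjusted by Benjamini and Hochberg's method across the 23521 probe sets and a threshold of 0.05. The number of arrays limits the precision. The script was tested on simulated data.

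Sample values are printed for genes with an unadjusted p under 0.05, the 2 with the highest mean of each role group and genes in which an array stood apart by over 1; those of C1qa, C1qc, Cfi, Clu, C6, C8a, C9 and Mbl2 were added after they were seen. Up to 6 further complement genes and 4 acute phase genes with the smallest p are named. Saa3, Saa2, Lcn2 and the markers Mpeg1, Adgre1, Lum and Dcn were named after their values were seen. The members and lists were chosen with earlier results of these data known, and the genes with printed promoters after their values were seen. Same-numbered arrays did not deviate together. The alternatives are given in the closing section. Promoters are from a RefSeq table of GRCm38.p6.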

Additional observations from a re-analysis of the deposited data

How the results depend on the processing

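Of the 30 complement genes, 0 passed the adjusted threshold with limma under any of 16 other settings, the smallest adjusted p being 0.403, and 16 kept their direction throughout. The 6 genes with the smallest p were among the 16. C5ar1 and 4 other dim genes had no value with the brighter probe sets alone. The count with an unadjusted p under 0.05 ran from 2 (without Balb/cBy replicate 2) to 5 when single arrays were left out. It was 2 with the replicate block. The share of all genes under that p was counted in the main fit only, so these counts have no background beside them. Same-numbered arrays did not deviate together (r = -0.32, -0.19 and -0.23 across genes). Arrays of unlike number gave r from 0.0072 to 0.22. Deviations from the mean of 3 arrays are tied to each other, so these values cannot exclude a pairing. The median difference of 0.10 ran from 0.105 to 0.118 when single arrays were left out and was 0.058 with renewed quantile normalization, which gave 20 higher and 10 lower. Over all probe sets 0 were called with all arrays, 31 with array weights, and 0 to 4 when single arrays were left out (2 when Balb/c replicate 3 was missing, 4 when Balb/cBy replicate 1 was). Without both of these arrays, a setting chosen after seeing the data, 16 were called, and 7 complement genes had an unadjusted p under 0.05. For that count too the share of all genes was not taken. None of the called probe sets was that of a complement gene. The other 14 genes, none over 0.18 in size, changed sign somewhere. When single arrays were left out, C1qb ran from -0.13 to 0.35, C1qc from -0.22 to 0.25, C1ra from -0.152 to 0.0618, C1s1 from -0.11 to 0.12, C4b from -0.0447 to 0.258, C4bp from -0.0752 to 0.0909, C7 from -0.125 to 0.0118, C9 from -0.17 to 0.24, Cd46 from -0.197 to 0.0947, Cfb from -0.217 to 0.0305, Cfp from -0.32 to 0.13 and Hc from -0.20 to 0.25. With array weights C1ra read 0.0055, C1s1 -0.085 and C4bp -0.062. With renewed quantile normalization C1qc read -0.017, C9 -0.066 and C4bp -0.0097. Without Balb/c replicate 3 and Balb/cBy replicate 1, C1qb read -0.083, C1qc -0.10, C4bp -0.059, Vtn -0.0058, Cd55 0.038 and Cd46 0.079. The cause was not tested.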
